A study of Mus musculus with 9 samples.

Results

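Mitosis, spindle and kinetochore genes were followed in sorted cells of the newborn mouse retina. The group holds 50 genes out of 18193 that the arrays measured, taken from a list of gene symbols. Where several probe sets were annotated to a symbol alone, the brightest of them over the 9 arrays stands for the gene. All 50 were measured, by 113 probe sets, and no filter on low values was applied. Levels are log2 values, so a difference of 1 is a 2-fold difference, and values of different genes are not set against each other because probe sets differ in their response.

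The arrays measured total RNA of 3 sorted populations with 3 biological replicates each. The rhoGFP-positive and rhoGFP-negative groups are the cells with and without green fluorescence from rhoEGFP mice at postnatal day 4. The nestinGFP-positive group is the fluorescent cells of pNestin-GFP mice at postnatal day 0, and no fluorescence-negative fraction of that line is among the samples. All mice had the C57BL/6J-129/Ola background, and RNA of a replicate came from pooled retinae of 6 to 8 animals. Age, reporter line and cell population therefore differ together between either rhoGFP group and the nestinGFP-positive group and cannot be told apart. In such bulk samples fewer dividing cells and less RNA of these genes per dividing cell cannot be told apart either.

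Mitosis starts when the kinase Cdk1, bound to cyclin A or cyclin B, is activated by Cdc25 phosphatases, and Aurora and Polo-like kinases act beside it. Kinetochores built on centromeres capture the microtubules of the spindle, kinesins move and organise them, and the spindle checkpoint holds back anaphase until every chromosome is attached. The anaphase-promoting complex with Cdc20 then triggers the release of sister chromatids, and the cleavage furrow splits the cell. In the early postnatal mouse retina progenitors still divide, while rods are postmitotic neurons. Many genes of this group are transcribed mainly in the late phases of the cell cycle.

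The labels were checked against marker genes. All 12 measured rod markers were called higher in the rhoGFP-positive cells than in either other group, and the median of this list was 11.65 to 11.95 on the rhoGFP-positive arrays, 8.18 to 8.74 on the rhoGFP-negative arrays and 6.52 to 7.89 on the nestinGFP-positive arrays. Of 11 retinal progenitor markers, 10 were called lower in the rhoGFP-positive cells than in each of the other groups. Of 11 amacrine and ganglion cell markers 8 were called lower than in the rhoGFP-negative and 9 than in the nestinGFP-positive cells, and of 10 endothelial and mural markers 2 and 2. Both times these 2 were Kdr and Cldn5. Over all genes 7.32% and 10.5% were called lower than in the rhoGFP-negative and nestinGFP-positive cells, and 3.61% and 5.06% higher. The median differences of the endothelial and mural list were 0.03 and 0.05, with 4 and 3 of the 10 negative. Control probe sets for 18S ribosomal RNA read 12.13 to 13.62 on the arrays of replicate 1 of all 3 groups and 9.65 to 10.44 on the other 6 arrays. The 3' minus 5' signal of the actin control was 0.85 to 0.97 on the rhoGFP-positive arrays, 0.64 to 0.68 on the rhoGFP-negative arrays and 0.40 to 0.99 on the nestinGFP-positive arrays, and its part in the results was not tested.

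Replicate 3 of both rhoGFP fractions stood apart in the mitotic genes. The median over the 50 genes was 7.92, 7.94 and 9.71 on the 3 rhoGFP-negative arrays, 6.93, 6.75 and 7.71 on the rhoGFP-positive arrays and 9.80, 9.72 and 9.58 on the nestinGFP-positive arrays. The third rhoGFP-negative array thus lay at the level of the nestinGFP-positive arrays, while the other two lay between the rhoGFP-positive and nestinGFP-positive levels. Over all probe sets that array correlated at 0.992 and 0.984 with the other rhoGFP-negative arrays and at 0.988, 0.991 and 0.982 with the nestinGFP-positive arrays. Its labels give the same line and age as for its group and no reason for its position, so every rhoGFP-negative mean depends on whether it represents that group. On that array 46 of the 50 genes were at least 1 log2 unit above the mean of replicates 1 and 2, against 226 of all 18193 genes (1.24%), and all 50 exceeded both other replicates, as did 36.6% of all genes. On the third rhoGFP-positive array 15 of the 50 were at least 1 log2 unit above the mean of the others (0.357% of all genes) and 48 exceeded both (27.2%). On the third nestinGFP-positive array none was that far above the others (0 of 50, against 0.643% of all genes), and 5 exceeded both (43.0%). The median SD over the mitotic genes was 0.48 for rhoGFP-positive, 1.01 for rhoGFP-negative and 0.18 for nestinGFP-positive arrays, against 0.15, 0.15 and 0.17 over all genes.

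Some other markers also differed on replicate 3, not all in the same direction. Of the 11 progenitor markers 10 were higher on replicate 3 than on both other replicates in the rhoGFP-positive group, and 10 in the rhoGFP-negative group, with a median excess of 0.50 and 0.51. Of all genes 27.2% and 36.6% were. Of 12 rod markers 1 was in each rhoGFP group, with a median excess of -0.25 and -0.28, and of 11 amacrine and ganglion cell markers 6 and 3 were. The third nestinGFP-positive array differed more in rod markers, with a median excess of -1.06 and list medians of 7.89, 7.48 and 6.52. For the progenitor markers its median excess was 0.07. Ccnd1, the cyclin D1 gene that progenitors express strongly, read 10.13, 10.22 and 11.34 on the rhoGFP-positive arrays. Of 10 microglia markers all 10 were higher on the third rhoGFP-positive array than on both others, with list medians of 5.62, 6.03 and 6.78. On the third rhoGFP-negative array 2 of the 10 were, with a median excess of -0.34. The log2 of the summed microglia signal was 8.82 to 10.26 on the rhoGFP-positive arrays and 8.29 to 8.80 on the nestinGFP-positive arrays. On the 3 rhoGFP-negative arrays it was 9.16, 9.15 and 8.70. Aif1, a defining microglia gene, read 3.79 to 4.65 on the rhoGFP-positive arrays, 3.63 to 3.82 on the rhoGFP-negative and 3.28 to 3.73 on the nestinGFP-positive arrays. Pecam1, a defining endothelial gene, read 4.25 to 4.61, 4.04 to 4.46 and 3.92 to 4.45 in the same order. The part of these cells in the mitotic results was not tested.

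**Figure D1:**
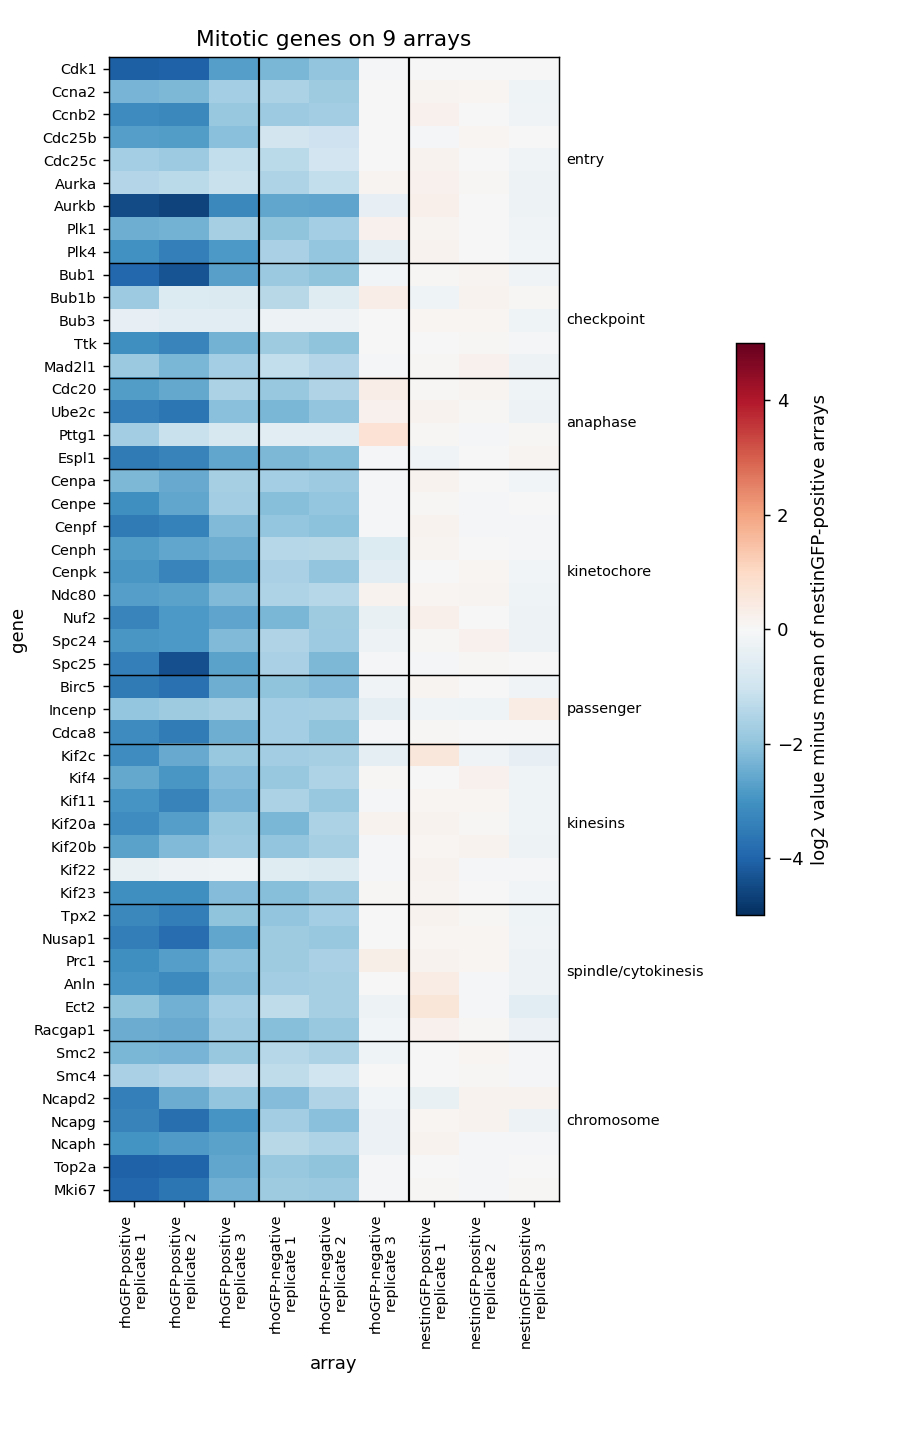
Heat map of the 50 mitotic genes (rows, by role) on the 9 arrays (columns, by group and replicate); colour gives the log2 value minus that gene's mean over the 3 nestinGFP-positive arrays, blue for lower. The third rhoGFP-negative array is near white for most genes, as its median of 9.71 lies at the nestinGFP-positive level, while the first 2 rhoGFP-positive arrays are the darkest.

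Mitotic genes were lower in the rhoGFP-positive cells than in both other groups. Against the rhoGFP-negative cells of the same line and age 30 of the 50 genes were called lower and 0 higher, where a call needs a Benjamini-Hochberg adjusted p below 0.05 in limma and at least a 2-fold difference. Of all genes 7.32% were called lower and 3.61% higher. At an unadjusted p below 0.05 limma found 43 lower and 0 higher, against 3463 and 2675 of all 18193 genes. The median difference was -1.47, against 0.01 over all genes, and 49 of the 50 differences were negative. For each gene the limma fit pooled the spread over the arrays of all groups, although that spread was unequal. The median SD of the mitotic genes was 0.48 for rhoGFP-positive, 1.01 for rhoGFP-negative and 0.18 for nestinGFP-positive arrays. The nestinGFP-positive arrays thus enter the errors of this comparison too. With them left out of the fit, 18 genes were called lower instead of 30. In 34 genes every rhoGFP-positive array lay below every rhoGFP-negative array, as it did for 20.3% of all genes. Without the third rhoGFP-positive array, the highest of its group in 48 of the 50 genes, this held for 47 of 50 and 22.5% of all genes. Without the third rhoGFP-negative array it held for 34 of 50 and 22.9% of all genes. Leaving out an array can only raise or keep such a count.

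Against the nestinGFP-positive cells 47 of the 50 were called lower in the rhoGFP-positive cells and 0 higher, where 10.5% of all genes were called lower and 5.06% higher. At an unadjusted p below 0.05, 49 were lower and 0 higher, against 4198 and 3964 of all 18193 genes. The median difference was -2.63, against 0.06 over all genes. All 50 genes were lower on every rhoGFP-positive array than on every nestinGFP-positive array, as were 23.4% of all genes. Both comparisons use the same rhoGFP-positive arrays and are therefore not independent.

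How many genes were called between the rhoGFP fractions depended on single arrays. Leaving out 1 array at a time gave between 9 and 38 calls. Without rhoGFP-positive replicate 1, 16 genes were called (6.93% of all genes) with a median difference of -1.36. Without rhoGFP-positive replicate 2, 9 were called (6.63% of all genes) with a median of -1.40. Without rhoGFP-negative replicate 3, 20 were called (6.5% of all genes) with a median of -0.93. Cdc25b, Plk4, Bub1, Cenph, Cenpk, Nusap1, Ncapg, Ncaph and Top2a were the 9 genes called lower in each of the 9 fits with 1 array left out. The other 21 calls all ended without rhoGFP-positive replicate 2, where the adjusted p was 0.0579 for Cdk1, 0.0705 for Aurkb, 0.0501 for Mki67 and 0.053 for Spc25. With replicate 3 of both rhoGFP fractions left out, an alternative chosen after seeing the data, 30 genes were called lower with a median of -1.22, and 6.5% of all genes. Against the nestinGFP-positive cells 45 to 48 genes were called when 1 array was left out, and 45 genes were called in each of the 9 fits. The exceptions there were Aurka, whose call ended without either of rhoGFP-positive replicates 1 and 2 (adjusted p 0.0542 and 0.0548) and without either of nestinGFP-positive replicates 1 and 2 (0.0564 and 0.0583), and Pttg1, whose call ended without rhoGFP-positive replicate 1.

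**Figure D2:**
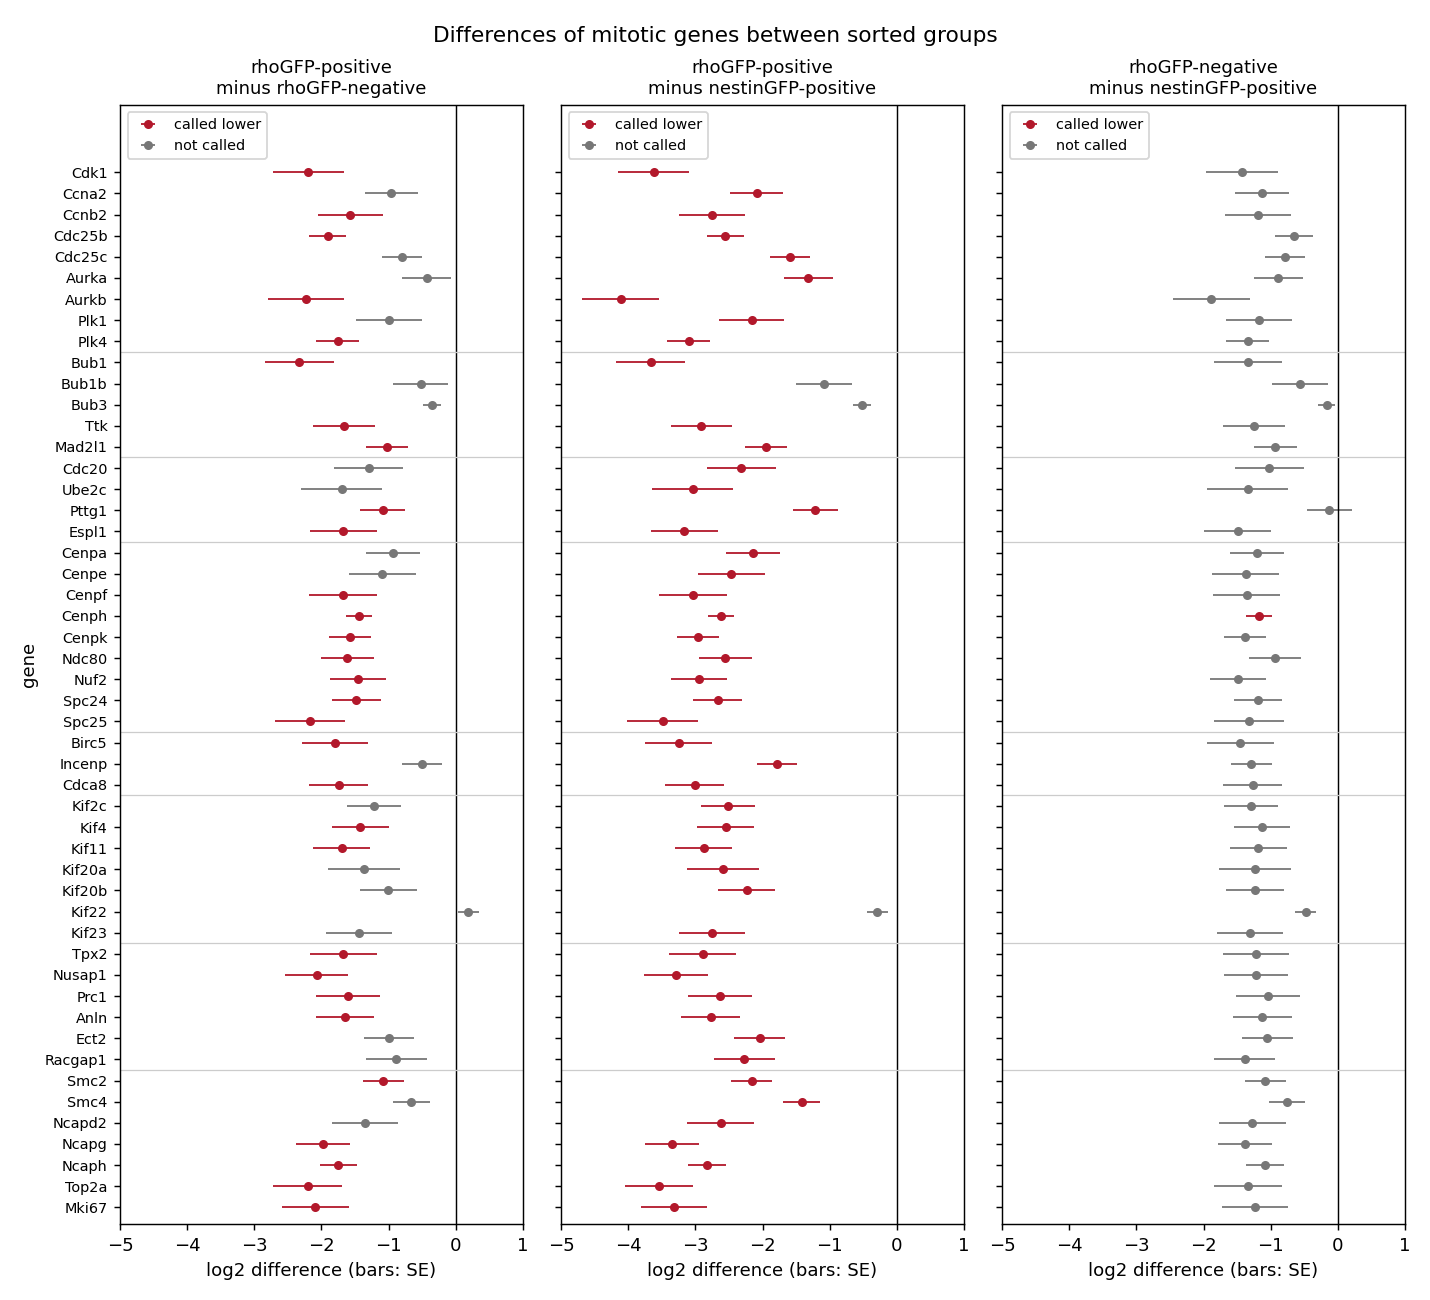
Log2 differences of the 50 mitotic genes in the 3 comparisons. Points give limma's estimate from 3 arrays a group. Bars give 1 SE, from a spread pooled over the arrays of all groups. Red marks genes called lower and grey the rest. Red points number 30 in the left panel, 47 in the middle panel and 1 in the right panel, and Kif22 is the single gene right of 0 in the left panel.

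The genes of mitotic entry comprise the kinase Cdk1, the cyclins Ccna2 and Ccnb2, the phosphatases Cdc25b and Cdc25c, the Aurora kinases Aurka and Aurkb, and the Polo-like kinases Plk1 and Plk4. Against the rhoGFP-negative cells 5 of 9 were called lower, with a median of -1.57, and against the nestinGFP-positive cells all 9 were, with a median of -2.56. Cdk1 read 6.71, 6.75 and 8.02 on the rhoGFP-positive, 8.51, 8.82 and 10.73 on the rhoGFP-negative and 10.79, 10.77 and 10.79 on the nestinGFP-positive arrays. Each rhoGFP-positive array was below each array of the other groups. Its difference was -2.20 ± 0.53 (SE) from the rhoGFP-negative cells (4.58-fold lower, adjusted p 0.0136) and -3.62 ± 0.53 from the nestinGFP-positive cells (12.3-fold lower, adjusted p 0.000498). Aurkb, the kinase of the chromosomal passenger complex, read 5.18, 5.01 and 6.41 on the rhoGFP-positive, 7.06, 7.01 and 9.24 on the rhoGFP-negative and 9.89, 9.66 and 9.40 on the nestinGFP-positive arrays. The 3 groups did not overlap, and its difference between the rhoGFP fractions was -2.24 ± 0.57 (adjusted p 0.0168).

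Other kinases of entry differed less between the rhoGFP fractions. Aurka, the kinase of centrosomes and spindle poles, read 7.43, 7.56 and 7.78 on the rhoGFP-positive, 7.35, 7.66 and 9.05 on the rhoGFP-negative and 9.11, 8.98 and 8.63 on the nestinGFP-positive arrays. The first 2 rhoGFP-negative arrays overlapped the rhoGFP-positive range, and only the third was high. The difference of Aurka was -0.43 ± 0.37 (adjusted p 0.484), and it was -0.01 over replicates 1 and 2. Against the nestinGFP-positive cells Aurka was called lower, by -1.32 ± 0.37 (adjusted p 0.0182). Plk1 read 7.20, 7.27 and 7.99 on the rhoGFP-positive and 7.62, 7.96 and 9.85 on the rhoGFP-negative arrays, which overlap, with a difference of -0.99 ± 0.49 (adjusted p 0.194). Plk4, which starts centriole duplication, read 7.14, 6.79 and 7.32 against 8.55, 8.26 and 9.72 on the rhoGFP-negative arrays. These did not overlap, and the difference was -1.76 ± 0.32 (adjusted p 0.00293). Cdc25b, a phosphatase that activates Cdk1, read 7.08, 7.04 and 7.76 on the rhoGFP-positive, 8.94, 8.80 and 9.85 on the rhoGFP-negative and 9.74, 9.94 and 9.86 on the nestinGFP-positive arrays. It was 3.74-fold lower in the rhoGFP-positive than in the rhoGFP-negative cells (-1.90 ± 0.28, adjusted p 0.000728). The difference of Ccnb2 was -1.57 ± 0.49 (adjusted p 0.0424), while Ccna2 (-0.96, adjusted p 0.119) and Cdc25c (-0.80, adjusted p 0.0846) were not called.

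Promoters of these genes often carry a CCAAT box and a cell cycle homology region (CHR), elements through which late cell cycle genes are repressed in resting cells and activated in dividing ones. Windows of 300 bases, 250 before and 50 after the start of the gene, were found in a RefSeq table (build GRCm38.p6) for 42 of the 50 genes. CCAAT, or ATTGG for the other strand, was in a window of 31 of the 42 (73.8%), against 41.1% of 27025 genes in the table. TTTGAA, or TTCAAA for the other strand, was in 30 of 42 (71.4%), against 20.2%. Both were in 26 of 42 (61.9%), against 8.97%. A match describes letters only. Genes called lower between the rhoGFP fractions and genes not called both had them: Cdk1 and Ccnb2 were called, and Plk1 and Cdc20 were not. The 150 bases before the start of each of these 4 genes are printed 5' to 3' on the strand of the gene, with both motifs in capitals, to show how the elements are placed; in these stretches the motifs do not overlap. They lie at chr10:69352913-69353062 (minus strand) for Cdk1, chr9:70421555-70421704 (minus) for Ccnb2, chr7:122159285-122159434 (plus) for Plk1 and chr4:118437344-118437493 (minus) for Cdc20.
Cdk1: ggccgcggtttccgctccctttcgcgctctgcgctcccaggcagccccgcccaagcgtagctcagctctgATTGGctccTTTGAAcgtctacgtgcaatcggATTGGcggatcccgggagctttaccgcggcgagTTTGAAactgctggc
Ccnb2: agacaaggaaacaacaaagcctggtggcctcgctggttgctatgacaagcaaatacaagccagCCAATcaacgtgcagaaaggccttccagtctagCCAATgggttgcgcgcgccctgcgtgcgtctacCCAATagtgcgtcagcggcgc
Plk1: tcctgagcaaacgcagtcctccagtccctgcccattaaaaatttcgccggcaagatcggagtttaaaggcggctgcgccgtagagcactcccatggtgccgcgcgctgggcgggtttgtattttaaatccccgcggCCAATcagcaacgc
Cdc20: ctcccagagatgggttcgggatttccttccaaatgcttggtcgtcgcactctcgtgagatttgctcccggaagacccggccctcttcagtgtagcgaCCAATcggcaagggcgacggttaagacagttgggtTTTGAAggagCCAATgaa
Counted from the start of the gene, Cdk1 had ATTGG at -80 and -48 and TTTGAA at -71 and -15, with another ATTGG at -208 outside the printed bases. Ccnb2 had CCAAT at -87, -54 and -21, spaced alike, and its TTTGAA at -167 and 5 lay outside the printed bases. Cdc20 had CCAAT at -53 and -8 around a TTTGAA at -18. Plk1 had CCAAT at -14 and TTTGAA at 31, after the start. Neither motif was found in the windows of Birc5, Mad2l1, Ncaph, Nuf2, Nusap1, Plk4 and Pttg1, of which all 7 were called lower between the rhoGFP fractions. Of the 50 genes 30 were called lower there, and a link between motifs and calls was not tested.

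The spindle checkpoint genes are Bub1, Bub1b, Bub3, Ttk and Mad2l1, whose products delay anaphase while kinetochores are unattached. Against each of the other groups 3 of 5 were called lower, with medians of -1.02 and -1.95. Bub1, a kinetochore kinase, read 5.70, 5.31 and 6.92 on the rhoGFP-positive, 7.78, 7.63 and 9.50 on the rhoGFP-negative and 9.69, 9.78 and 9.47 on the nestinGFP-positive arrays. The rhoGFP-positive arrays lay below all others, and the third rhoGFP-negative array lay within the nestinGFP-positive range. Bub1 had the lowest difference of the 50 genes between the rhoGFP fractions, -2.33 ± 0.51 (5.03-fold lower, adjusted p 0.00778), and differed by -3.67 ± 0.51 from the nestinGFP-positive cells (12.7-fold lower, adjusted p 0.000344). Ttk, the kinase also called Mps1, differed by -1.66 ± 0.46 (adjusted p 0.0247) and Mad2l1, the Mad2 protein that binds Cdc20, by -1.02 ± 0.32 (adjusted p 0.0412) between the rhoGFP fractions.

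Bub3 and Bub1b were not called in either comparison. Bub3, an adaptor of the checkpoint, read 11.22, 11.10 and 11.06 on the rhoGFP-positive, 11.40, 11.38 and 11.66 on the rhoGFP-negative and 11.76, 11.76 and 11.42 on the nestinGFP-positive arrays. The rhoGFP-positive arrays were the lowest, yet the differences were small, -0.35 ± 0.13 (adjusted p 0.0791) and -0.52 ± 0.13 (adjusted p 0.0108, under 2-fold). Bub1b, which encodes the checkpoint protein BubR1, read 7.62, 8.78 and 8.71 on the rhoGFP-positive and 8.07, 8.83 and 9.77 on the rhoGFP-negative arrays, which overlap. Its differences were -0.52 ± 0.41 (adjusted p 0.45) and, from the nestinGFP-positive cells, -1.08 ± 0.41 (adjusted p 0.0691). The latter passed the threshold without rhoGFP-negative replicate 1 (adjusted p 0.0324) or replicate 3 (adjusted p 0.0281).

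Genes of anaphase onset are Cdc20, the activator of the anaphase-promoting complex, Ube2c, the ubiquitin-conjugating enzyme that works with it, Pttg1 (securin) and Espl1 (separase). Between the rhoGFP fractions 2 of the 4 were called lower, and against the nestinGFP-positive cells all 4 were, with medians of -1.49 and -2.68. Ube2c read 7.72, 7.53 and 9.05 on the rhoGFP-positive, 8.87, 9.16 and 11.37 on the rhoGFP-negative and 11.31, 11.21 and 10.90 on the nestinGFP-positive arrays. The third rhoGFP-positive array overlapped the rhoGFP-negative range, and the difference of -1.70 ± 0.61 was not called (adjusted p 0.0726). Cdc20 read 7.85, 8.09 and 9.08 against 8.77, 9.17 and 10.97 and overlapped in the same way, with a difference of -1.30 ± 0.51 (adjusted p 0.102). Espl1 was lower by -1.68 ± 0.50 (adjusted p 0.0362) between the rhoGFP fractions and by -3.17 ± 0.50 against the nestinGFP-positive cells (8.97-fold, adjusted p 0.000802). Pttg1 read 9.05, 9.67 and 9.97 on the rhoGFP-positive, 10.20, 10.26 and 11.49 on the rhoGFP-negative and 10.83, 10.67 and 10.83 on the nestinGFP-positive arrays. On the third rhoGFP-negative array it was above every nestinGFP-positive value, and its difference between the rhoGFP fractions was -1.08 ± 0.33 (adjusted p 0.0411).

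Centromere and kinetochore genes join chromosomes to the spindle, and 7 of 9 were called lower between the rhoGFP fractions, with a median of -1.48. Against the nestinGFP-positive cells all 9 were called lower, with a median of -2.67. Spc25 and Spc24 encode subunits of the Ndc80 complex, which binds spindle microtubules, as do Ndc80 and Nuf2. Spc25 read 7.81, 6.83 and 8.53 on the rhoGFP-positive, 9.60, 8.98 and 11.10 on the rhoGFP-negative and 11.12, 11.28 and 11.23 on the nestinGFP-positive arrays. The 3 groups did not overlap, and the difference between the rhoGFP fractions was -2.17 ± 0.52 (adjusted p 0.013). The other 3 subunits were also called lower, Ndc80 by -1.61, Spc24 by -1.48 and Nuf2 by -1.46.

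Cenph and Cenpk, partners within the inner kinetochore, had small errors. Cenph read 4.88, 5.09 and 5.25 on the rhoGFP-positive, 6.25, 6.31 and 6.99 on the rhoGFP-negative and 7.82, 7.67 and 7.58 on the nestinGFP-positive arrays. The 3 groups did not overlap, and the differences from the rhoGFP-positive cells were -1.44 ± 0.19 (adjusted p 0.000455) and -2.62 ± 0.19 (adjusted p 8.08e-06). Cenpk differed by -1.57 ± 0.31 (adjusted p 0.00467) between the rhoGFP fractions. Cenpf, a large coiled-coil protein of the outer kinetochore, differed by -1.68 ± 0.50 (adjusted p 0.0359). Cenpa, the histone H3 variant that marks centromeres, read 7.57, 7.32 and 8.15 against 8.12, 8.01 and 9.71, which overlap, and was not called (-0.93 ± 0.40, adjusted p 0.134), nor was the kinesin Cenpe (-1.09 ± 0.50, adjusted p 0.156).

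Birc5 (survivin), Cdca8 (borealin) and Incenp are the partners of Aurkb in the chromosomal passenger complex. All 3 were called lower in the rhoGFP-positive than in the nestinGFP-positive cells, and 2 of the 3 between the rhoGFP fractions. Birc5 read 6.57, 6.37 and 7.66 on the rhoGFP-positive and 8.12, 7.94 and 9.93 on the rhoGFP-negative arrays, with no overlap and a difference of -1.80 ± 0.50 (adjusted p 0.0253). Cdca8 differed by -1.74 ± 0.44 (adjusted p 0.0167). Incenp, the scaffold of the complex, read 9.16, 9.29 and 9.44 against 9.37, 9.42 and 10.61, and 10.92, 10.88 and 11.45 on the nestinGFP-positive arrays. Like Aurka it overlapped between the rhoGFP fractions apart from replicate 3 (-0.50 ± 0.30, adjusted p 0.303), and it was called lower against the nestinGFP-positive cells (-1.79 ± 0.30, adjusted p 0.00121).

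Mitotic kinesins are motors that move along or depolymerise microtubules. Between the rhoGFP fractions 2 of 7 were called lower, with a median of -1.36, and against the nestinGFP-positive cells 6 of 7, with a median of -2.55. Kif11, the motor that pushes spindle poles apart, read 6.11, 5.73 and 6.75 on the rhoGFP-positive, 7.51, 7.17 and 9.0 on the rhoGFP-negative and 9.17, 9.18 and 8.87 on the nestinGFP-positive arrays. The rhoGFP-positive arrays were below all others, and the difference was -1.70 ± 0.43 (adjusted p 0.0158). Kif4, a chromosome-bound motor, differed by -1.42 ± 0.42 (adjusted p 0.0346). Kif2c (-1.22, adjusted p 0.0546), Kif23 (-1.45, adjusted p 0.0613), Kif20a (-1.36, adjusted p 0.102) and Kif20b (-1.0, adjusted p 0.132) were not called between the rhoGFP fractions.

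Kif22, a motor that binds chromosome arms, was the single gene of the 50 with a difference above 0. It read 10.25, 10.36 and 10.40 on the rhoGFP-positive, 10.03, 9.90 and 10.52 on the rhoGFP-negative and 10.79, 10.52 and 10.57 on the nestinGFP-positive arrays. The rhoGFP-positive values lay within the rhoGFP-negative range (0.19 ± 0.16, adjusted p 0.48) and just below the nestinGFP-positive values (-0.29 ± 0.16, adjusted p 0.192). The probe set used for Kif22 is of a class that may detect several transcripts. Probe sets of such classes also stand for Aurkb, Plk4, Bub3, Pttg1, Incenp, Cdca8, Kif2c, Prc1 and Ncaph. Without them Prc1 was no longer called between the rhoGFP fractions, Plk4, Pttg1, Cdca8 and Ncaph still were, and Aurkb had none left. The 2 other probe sets of Kif22 differed by 0.11 and 0.22 between the rhoGFP fractions and by -0.97 and -0.90 from the nestinGFP-positive cells.

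Spindle assembly and cytokinesis are represented by Tpx2, Nusap1, Prc1, Anln, Ect2 and Racgap1. Between the rhoGFP fractions 4 of 6 were called lower, with a median of -1.63, and against the nestinGFP-positive cells all 6, with a median of -2.70. Nusap1, a protein that bundles spindle microtubules, read 7.09, 6.75 and 7.97 on the rhoGFP-positive, 8.80, 8.66 and 10.58 on the rhoGFP-negative and 10.66, 10.66 and 10.37 on the nestinGFP-positive arrays. The rhoGFP-positive arrays lay below all others, by -2.07 ± 0.47 from the rhoGFP-negative cells (adjusted p 0.00998) and by -3.29 ± 0.47 from the nestinGFP-positive cells (adjusted p 0.000438). Tpx2, the activator of Aurka on the spindle, differed by -1.68 (adjusted p 0.0347), Anln (anillin) by -1.65 (adjusted p 0.0208) and Prc1, which bundles midzone microtubules, by -1.60 (adjusted p 0.0356). Ect2 and Racgap1, which act together at the cleavage furrow, were not called (-0.99, adjusted p 0.0916, and -0.88, adjusted p 0.214).

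Condensin subunits, topoisomerase and Ki-67 form the subgroup of chromosome structure, with 5 of 7 called lower between the rhoGFP fractions (median -1.75) and all 7 against the nestinGFP-positive cells (median -2.83). Top2a, which untangles DNA, read 7.63, 7.68 and 9.05 on the rhoGFP-positive, 9.76, 9.64 and 11.58 on the rhoGFP-negative and 11.67, 11.62 and 11.70 on the nestinGFP-positive arrays. No 2 groups overlapped, and the differences from the rhoGFP-positive cells were -2.21 ± 0.51 (adjusted p 0.0106) and -3.54 ± 0.51 (adjusted p 0.000437). Mki67, the proliferation marker that coats mitotic chromosomes, read 7.90, 8.20 and 9.42 on the rhoGFP-positive, 10.04, 9.98 and 11.77 on the rhoGFP-negative and 11.89, 11.72 and 11.88 on the nestinGFP-positive arrays. The rhoGFP-positive arrays were again below all others (-2.09 ± 0.49, adjusted p 0.0117). Among condensin subunits, Ncapg (-1.98 ± 0.40, adjusted p 0.00541) and Ncaph (-1.75 ± 0.28, adjusted p 0.00132) of condensin I were called, and Ncapd2 of the same complex was not (-1.35 ± 0.50, adjusted p 0.08). Of the core ATPases shared by both condensins, Smc2 was called (-1.08 ± 0.31, adjusted p 0.0276) and Smc4 was not (-0.66 ± 0.27, adjusted p 0.12).

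Because arrays of the rhoGFP fractions with the same replicate number deviated together, the difference was also taken within each number. The median over the 50 genes was -1.22 in replicate 1, -1.21 in replicate 2 and -2.09 in replicate 3. Lower values in the rhoGFP-positive member of the pair were found for 48, 49 and 50 genes, against 8390, 9082 and 9217 of all 18193. They were lower by at least 1 log2 unit for 30, 31 and 48 genes, against 1250, 1440 and 1583 of all genes. Averaged over replicates 1 and 2, the difference ran from -2.20 for Bub1 to 0.34 for Kif22, with Top2a at -2.05, Spc25 at -1.97 and Mki67 at -1.96 near the lower end, and with Incenp at -0.17, Bub3 at -0.23 and Bub1b at -0.25 near the upper end. With the replicate number as a block 37 genes were called lower (7.58% of all genes), adding Cdc20 (adjusted p 0.0243), Ube2c (adjusted p 0.0151), Cenpe (adjusted p 0.026), Kif2c (adjusted p 0.028), Kif20a (adjusted p 0.0281), Kif23 (adjusted p 0.0134) and Ncapd2 (adjusted p 0.00199).

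**Figure D3:**
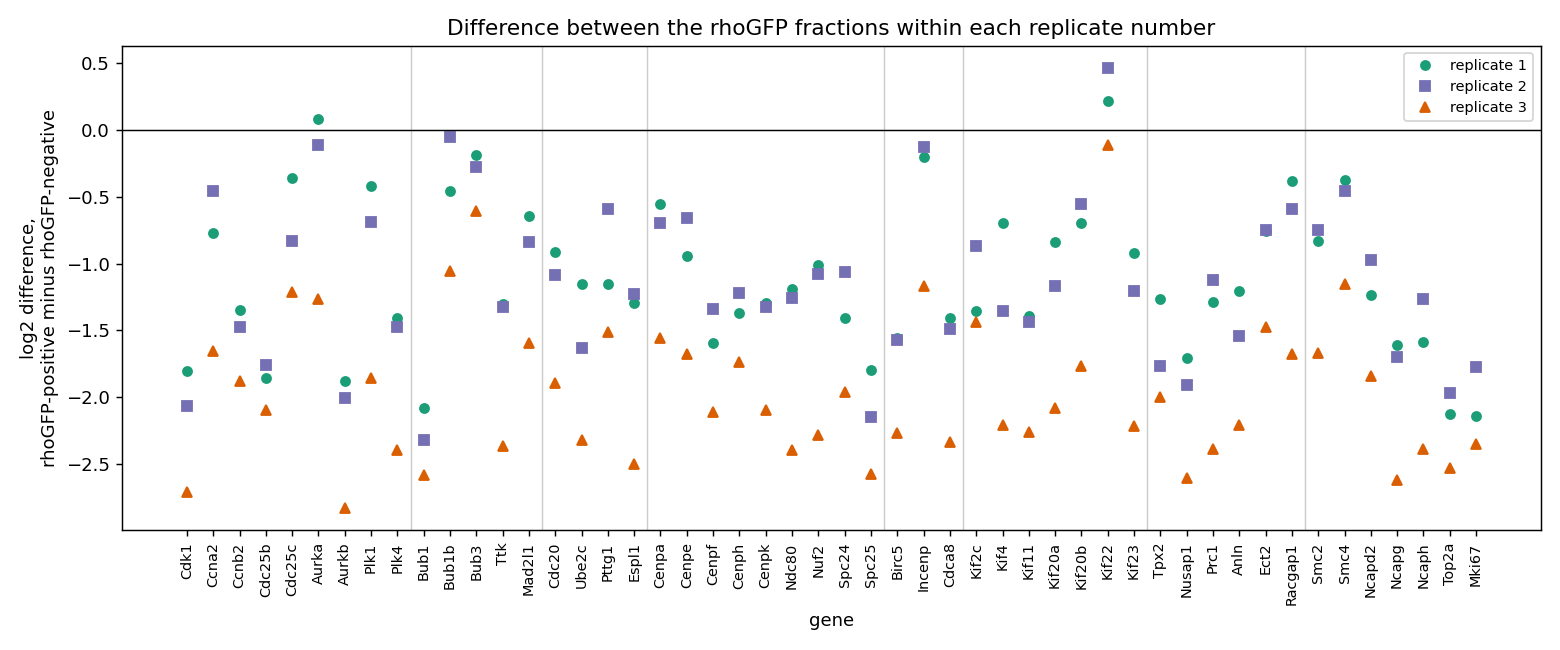
Log2 difference, rhoGFP-positive minus rhoGFP-negative, for each of the 50 genes (x axis, by role) within replicates 1 (circles), 2 (squares) and 3 (triangles), with 1 array a group in each point. Triangles lie lowest for nearly all genes, with a median of -2.09 against -1.22 and -1.21, and Aurka, Bub1b, Bub3, Incenp and Kif22 lie near 0 in replicates 1 and 2.

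Between the rhoGFP-negative and the nestinGFP-positive cells the result rested on 1 array. With all arrays 1 gene of 50 was called lower in the rhoGFP-negative cells and 0 higher, where 0.605% of all genes were called lower and 0.385% higher. At an unadjusted p below 0.05 in limma 44 were lower and 0 higher, against 1783 and 1502 of all 18193 genes. The called gene was Cenph, by -1.18 ± 0.19 (2.26-fold, adjusted p 0.0239). Its call ended without rhoGFP-negative replicate 1 (adjusted p 0.0825) or 2 (0.0827), without nestinGFP-positive replicate 2 (0.0933) or 3 (0.0595) and without rhoGFP-positive replicate 2 (0.0509). The median difference was -1.22, and in 15 of the 50 genes the groups did not overlap (8.79% of all genes). Aurkb had the lowest difference, -1.88 ± 0.57 (adjusted p 0.118), and Pttg1 the highest, -0.13 ± 0.33 (adjusted p 0.88).

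Replicate 3 of the rhoGFP-negative group stood out by the values of these same genes, as all 50 were highest there. Leaving it out had to lower each rhoGFP-negative mean, so results without it are a description and no separate support. Without it 45 of the 50 genes were called lower in the rhoGFP-negative than in the nestinGFP-positive cells, where 2.28% of all genes were. The median difference of the 50 was -1.78. Both remaining rhoGFP-negative arrays then lay below every nestinGFP-positive array in all 50 genes, as in 16.7% of all genes. With replicate 3 of both rhoGFP fractions left out 45 were called as well (2.16% of all genes). Cdk1 then differed by -2.12 (adjusted p 0.0111), Top2a by -1.96 (adjusted p 0.018) and Mki67 by -1.82 (adjusted p 0.0254). The 5 genes not called were Cdc25b (-0.98, adjusted p 0.0307, just under 2-fold), Bub1b (-1.0, adjusted p 0.163), Bub3 (-0.26, adjusted p 0.352), Pttg1 (-0.55, adjusted p 0.245) and Kif22 (-0.66, adjusted p 0.0194). Within replicate numbers the median difference was -1.85, -1.75 and 0.05. At least 1 log2 unit lower were 46, 45 and 0 of the 50 genes, against 578, 532 and 315 of all 18193. With the replicate number as a block 25 genes were called lower (1.76% of all genes). Line and age differ between these groups, and the replicate numbers are not shown to pair their arrays.

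Most of the 50 genes had further probe sets, whose median difference was closer to 0, and 9 of these 63 had a lower difference than the probe set used. The 63 further probe sets of 34 genes had a median difference of -0.47 between the rhoGFP fractions, 52 of them below 0 and 15 at least 1 log2 unit lower. Their median mean level was 6.26, against 8.53 for the probe sets used. For Aurkb the further probe set gave -1.90 and for Aurka it gave 0.11. When the probe sets of a gene were averaged, 23 genes were called lower between the rhoGFP fractions with a median of -1.06, and the median difference from the nestinGFP-positive cells was -2.16.

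Further genes of mitosis and of related complexes were counted in the same way. Of 67 further mitotic genes 20 were called lower in the rhoGFP-positive than in the rhoGFP-negative cells, where 7.32% of all genes were. Than in the nestinGFP-positive cells 49 were called lower, where 10.5% of all genes were. In either comparison 0 of the 67 were called higher, where 3.61% and 5.06% of all genes were, and the medians of the 67 were -0.80 and -1.78. The largest differences were those of Cdca5 (sororin, which stabilises sister chromatid cohesion), -2.51 ± 0.54 (adjusted p 0.00715) and -4.06 ± 0.54 (adjusted p 0.00026). Pbk, a mitotic kinase, differed by -2.30 ± 0.42 from the rhoGFP-negative cells (adjusted p 0.00302), and Stil, a centriole assembly protein, by -3.70 ± 0.42 from the nestinGFP-positive cells (adjusted p 0.000102). Between the rhoGFP-negative and nestinGFP-positive cells 1 of the 67 was called lower, where 0.605% of all genes were. It was the Cdk1-inhibiting kinase Wee1 (-1.01 ± 0.22, adjusted p 0.0483). Both motifs were in the promoter windows of 20 of 56 of these genes (35.7%).

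Subunits of the anaphase-promoting complex with its activator Fzr1, and cohesin with its loaders, had medians near those of all genes. Of the 15 genes of the first list 0, 1 and 0 were called lower in the 3 comparisons and 0 higher, with 6, 4 and 1 at an unadjusted p below 0.05 in either direction and medians of -0.09, -0.17 and -0.09. The called gene was Anapc5, -1.04 ± 0.20 against the nestinGFP-positive cells (adjusted p 0.00247). Of 10 cohesin genes none was called in any of the 3 comparisons (0 called, with 3, 6 and 2 at an unadjusted p below 0.05 in limma), and the medians were 0.02, -0.05 and -0.10. For both lists, the counts over all 18193 genes at an unadjusted p below 0.05 were 6138, 8162 and 3285. Of all genes 7.32%, 10.5% and 0.605% were called lower and 3.61%, 5.06% and 0.385% higher. Both motifs were in 0 of 14 windows of the first list and in 1 of 7 of the second.

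**Figure D4:**
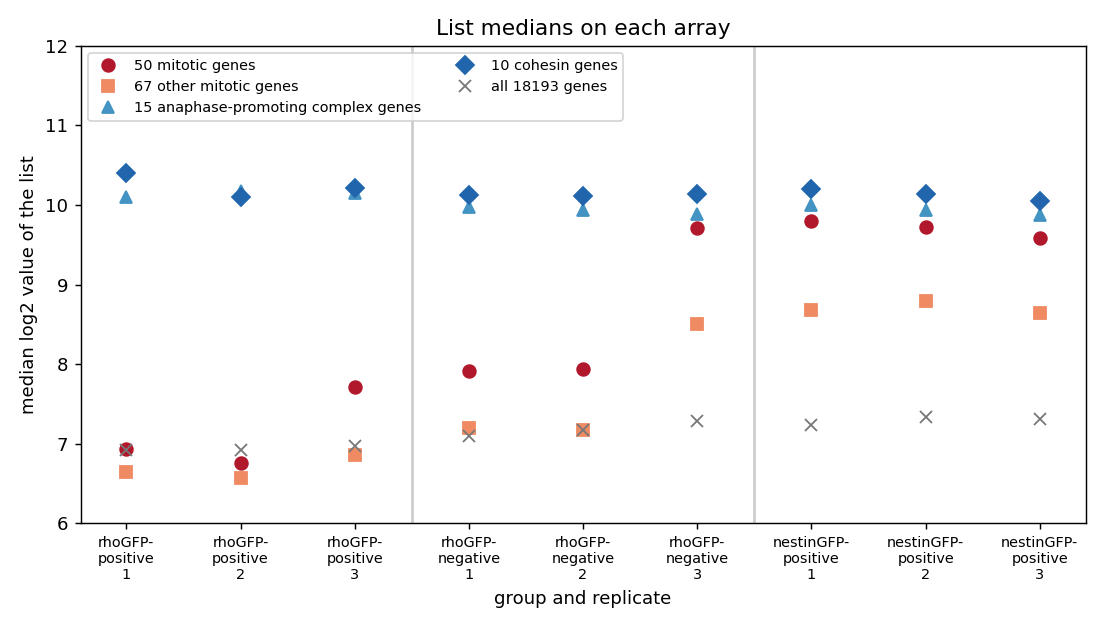
Median log2 value on each of the 9 arrays (x axis, by group and replicate) of the 50 mitotic genes, 67 other mitotic genes, 15 genes of the anaphase-promoting complex, 10 cohesin genes and all 18193 genes. The median of the 50 genes runs from 6.75 to 9.80, with the third rhoGFP-negative array at 9.71, while the median of all genes stays between 6.92 and 7.34.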

How the data were processed

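The authors deposited log2 values. RMA is the tool that the submitters' processing notes name, without a version. Of 45101 probe sets 64 were controls, 34945 had 1 gene symbol, 932 several and 9160 none. Differences were fitted with limma 3.58.1 (lmFit, eBayes, two-sided) in R 4.3.3 over all 9 arrays and 3 group means, with adjustment over 18193 genes. The fit was also run on simulated data, drawn independently per gene and array with the same spread in all groups. Such data hold no array on which genes shift together and no unequal spread, so they cannot test the calls for either. Figures used matplotlib 3.10.9. The 50 genes, the lists and the rule for named genes (all 50; of other lists the largest called differences and a few fixed markers) were chosen with earlier results of these data known. The number of arrays limits the precision.

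Deviations from group means correlated between same-numbered arrays with r of 0.62, 0.45 and 0.45 (rhoGFP-positive with rhoGFP-negative), 0.54, 0.15 and 0.23 (rhoGFP-negative with nestinGFP-positive) and 0.52, -0.01 and 0.25 (rhoGFP-positive with nestinGFP-positive). For the rhoGFP fractions these correlations over genes alone, not the labels, are the basis of the pairing. Between unlike numbers r ran from -0.49 to 0.07 there. With the nestinGFP-positive arrays unlike numbers reached 0.22 (rhoGFP-negative) and 0.39 (rhoGFP-positive), above some same-numbered values, so pairing is not shown. Over all probe sets arrays of a group correlated at 0.979 to 0.994, and no 2 arrays of a group were copies. Alternatives covered scaling, choice of probe set, a filter on dim genes, the arrays in the fit, the block, the moderation, the threshold and single arrays left out. Promoters of Aurkb, Smc4, Ccna2, Cdc25c, Incenp, Kif20a, Spc24 and Tpx2 and protein motifs were not analysed here.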

Additional observations from a re-analysis of the deposited data

How the results depend on the processing

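No difference of the 50 genes that was called changed sign under an alternative. Between the rhoGFP fractions 18 genes were called lower with only the 6 arrays compared and 8 at an adjusted p below 0.01, against 30; with single arrays left out the count ran from 9 to 38. Under the other alternatives it was 23 to 32, and 37 with the replicate block. Against the nestinGFP-positive cells the count was 45 to 48 in every alternative run, and the median moved to -2.16 with the mean of all probe sets. For the rhoGFP-negative against the nestinGFP-positive cells, where 1 gene was called, the count was 2 with a common median, 2 with the mean of all probe sets and 2 without dim genes (Cenpk in addition each time), 0 with only the 6 arrays compared and 0 at an adjusted p below 0.01. It ran from 0 to 45 with single arrays left out and was 45 without replicate 3 of both rhoGFP fractions. With the replicate block it was 25, and the block added Bub1b to the calls of the rhoGFP-positive against the nestinGFP-positive cells. In neither comparison with the nestinGFP-positive cells are the numbers shown to pair the samples. The cause of these shifts was not tested. With 3 arrays a group, and 2 where an array was left out, a gene not called is not shown to be equal.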
